A study of Saccharomyces cerevisiae with 8 samples.

Results

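Ribosome footprints per mRNA were examined in haploid yeast, strain BY4741 of Saccharomyces cerevisiae, that expressed targeted guide RNAs. The 4 libraries were taken by their labels from 8 in all: 2 RIBO-seq and 2 RNA-seq libraries, where a RIBO-seq and an RNA-seq library of the same replicate number came from 1 lysate. The cells of all 8 libraries carried an mCherry(K14UAG) reporter, a fluorescent protein gene with a premature stop codon, and a cassette for guide RNAs, which direct an enzyme to turn one uridine of a target RNA into its isomer pseudouridine. The cassette of the targeted cells held PTC(K14ΨAG)-gRNA, aimed at the premature stop codon, and tRNA_Lys(CUΨ36)-gRNA, aimed at the anticodon of a lysine tRNA. The control cells, used here for 1 comparison only, held control gRNAs. Both kinds of cells grew in synthetic dextrose medium lacking leucine and uracil and were harvested in mid-log phase. The labels do not say whether replicates were separate cultures, so p-values here reflect sample-to-sample spread that could be technical. Reads of the reporter and of the guide RNAs were not analysed here.

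In ribosome profiling a nuclease digests the mRNA that ribosomes do not cover, and the protected pieces, the footprints, are sequenced to count ribosomes on each coding sequence. Dividing footprints by the RNA of the same gene gives its translational efficiency, which depends on how often ribosomes start on an mRNA and how long they take to cross it. In growing yeast, mRNAs of ribosomal proteins and glycolytic enzymes are known to be well translated, while upstream reading frames, small frames before the main one, and structured leaders are known to keep ribosomes off some regulatory genes.

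Counts summed over 6016 protein-coding gene rows were 15253540 and 14163627 for footprints and 33947846 and 21073013 for RNA. The chi-square of replicate counts, per degree of freedom, was 14.4 for footprints and 7.72 for RNA, above the value of sampling noise alone. Most marker genes met the strain label, and SAG1 met it less clearly. STE2, the receptor for alpha-factor of MATa cells, had 8042 and 8155 footprint reads, and MF(ALPHA)1, the alpha-factor gene of the other mating type, had 4 and 0. STE3 and SAG1, also genes of the other mating type, had 33 and 29 and 29 and 41 footprint reads. Their RNA reads were 59 and 23 for STE3 and 283 and 222 for SAG1. The MATa gene AGA2 had 640 and 468 RNA reads. MET17, which BY4741 lacks, had 0 footprint reads in both libraries and 1 and 0 RNA reads.

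Of the 6016 rows, 5618 had enough reads for the test, and the other 398 had at most 43 reads in any targeted library. Each log2 ratio below is footprints over RNA after scaling the libraries by trimmed mean of M-values (TMM), so 0 is the average gene and the ratio is not a number of ribosomes per molecule. With lysate as a block, edgeR's quasi-likelihood test with Benjamini-Hochberg adjustment at 0.05 called 4435 genes, or 78.9% of those tested. Higher calls numbered 2206 (39.3%) and lower calls 2229 (39.7%). With scaling by library size alone the median of all genes moved up by 1.02 on the log2 scale, and 4463 genes were then called higher and 630 lower, so every direction given here is relative to the average gene. Because so many genes differed from the average, a second test asked whether a ratio passed 2-fold. It called 869 genes (15.5%), of which 212 (3.77%) were higher and 657 (11.7%) were lower.

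The ratio spread unevenly around its median of -0.01. The 5th percentile was -2.38 and the 95th percentile 1.07, a 10.95-fold span with its longer arm on the side of few footprints. The lysates gave nearly the same order of genes. Across the 5569 genes with reads in all 4 libraries, Pearson's r between the ratios of the lysates was 0.963 and Spearman's rho 0.958, as a description over genes that share libraries. The median absolute difference between lysates was 0.11 on the log2 scale. Of the 4400 genes with at least 100 reads in every library, 99.0% agreed within 0.5. For 4865 of the 5618 genes tested, both footprint libraries lay on the same side of both RNA libraries in normalised CPM (reads scaled to a common library size, here after TMM). Genes named below for the size of their ratio had to meet this condition.

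**Figure D1:**
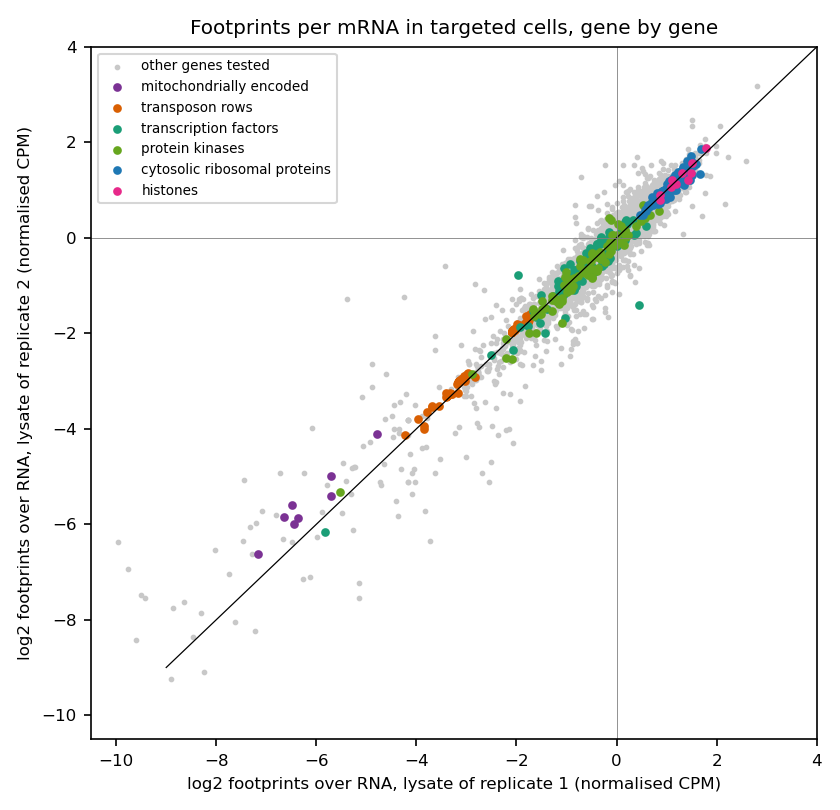
Each point is 1 gene, with the log2 ratio of footprints over RNA (normalised CPM) from the lysate of replicate 1 on the x axis and of replicate 2 on the y axis. Colours mark gene classes and the black line marks equal values. Mitochondrially encoded and transposon rows sit at the lower left, transcription factors and kinases mostly below 0, and ribosomal proteins and histones at the upper right.

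Histones carried many footprints per mRNA. All 10 tested histone genes were higher than the average gene, 7 of them past 2-fold, with a median log2 ratio of 1.24 against -0.01 over all genes. HTB1, one of the pair of genes for histone H2B, had 302 and 315 normalised CPM in footprints, against 87.9 and 85.3 in RNA. Its log2 ratio was 1.83 ± 0.06 (SE, 2 lysates, edgeR adjusted p = 1.77e-15). HTA1, a histone H2A gene, had a log2 ratio of 1.16. The linker histone HHO1 was lowest of the class, at 0.83. The 8 genes of the core histones H2A, H2B, H3 and H4 had a median of 1.32.

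Ribosomal proteins of the cytosolic ribosome were higher in 138 of 138 genes, and 60 passed 2-fold. Their median log2 ratio was 1.06, a 2.08-fold excess of footprints, with 0.98 for 81 large subunit and 1.07 for 57 small subunit genes. RPL36A, a large subunit protein, had 502 and 520 normalised CPM in footprints, against 155 and 142 in RNA. Its log2 ratio was 1.78 ± 0.06 (edgeR adjusted p = 3.83e-15). RPP0, the base of the ribosomal stalk, stood lowest, with 1610 and 1487 in footprints, against 1155 and 1069 in RNA, and its log2 ratio was 0.48. Leaving out transposon rows, the class took 21.7 and 19.8% of footprint reads, against 15.5 and 13.9% of RNA reads. Many of these genes have a near-identical copy, so values of single paralogs are uncertain.

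The other parts of the translation machinery were above the average gene with more spread. All 14 elongation and termination factors were higher, with a median of 0.79 and 4 genes past 2-fold. ANB1, an eIF5A gene, had the highest ratio of the genes ranked by size, with 107 and 110 normalised CPM in footprints, against 15.3 and 12.1 in RNA, and a log2 ratio of 2.96. It is nearly identical to HYP2, the main eIF5A gene (1.39), so its value is uncertain. TEF2, which encodes the factor that delivers aminoacyl-tRNA, was at 0.78, and the release factors SUP45 and SUP35 were at 0.45 and 0.41. YEF3, the fungal elongation factor 3, was lowest at 0.28, and its call was lost where the lysate block and 1 RNA library were left out together (adjusted p = 0.13 without replicate 1 and 0.237 without replicate 2), though not without the block alone.

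Initiation factors were higher in 22 and lower in 4 of 27 genes, with a median of 0.50. SUI1 (eIF1), which guards start codon choice, was highest at 0.96. The 4 that were lower were the eIF4G genes TIF4632 (-0.39) and TIF4631 (-0.19) and the eIF2B subunits GCD2 (-0.14) and GCD1 (-0.10). Cytosolic aminoacyl-tRNA synthetases, which charge tRNAs, were higher in 21 of 22 genes, with a median of 0.54. VAS1, the valine enzyme, had 503 and 507 normalised CPM in footprints, against 506 and 507 in RNA, and did not pass the test (log2 ratio -0.00, adjusted p = 0.937). KRS1, which charges lysine tRNA, had a log2 ratio of 0.54. Ribosome biogenesis factors were higher in 67 and lower in 15 of 102 genes, with a median of 0.26. NOP10, a small protein of the box H/ACA particles that guide pseudouridylation, was highest at 1.57, and CBF5, the pseudouridine synthase of those particles, was at 0.39. REA1, a very large ATPase of the nascent large subunit, was lowest at -1.06.

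**Figure D2:**
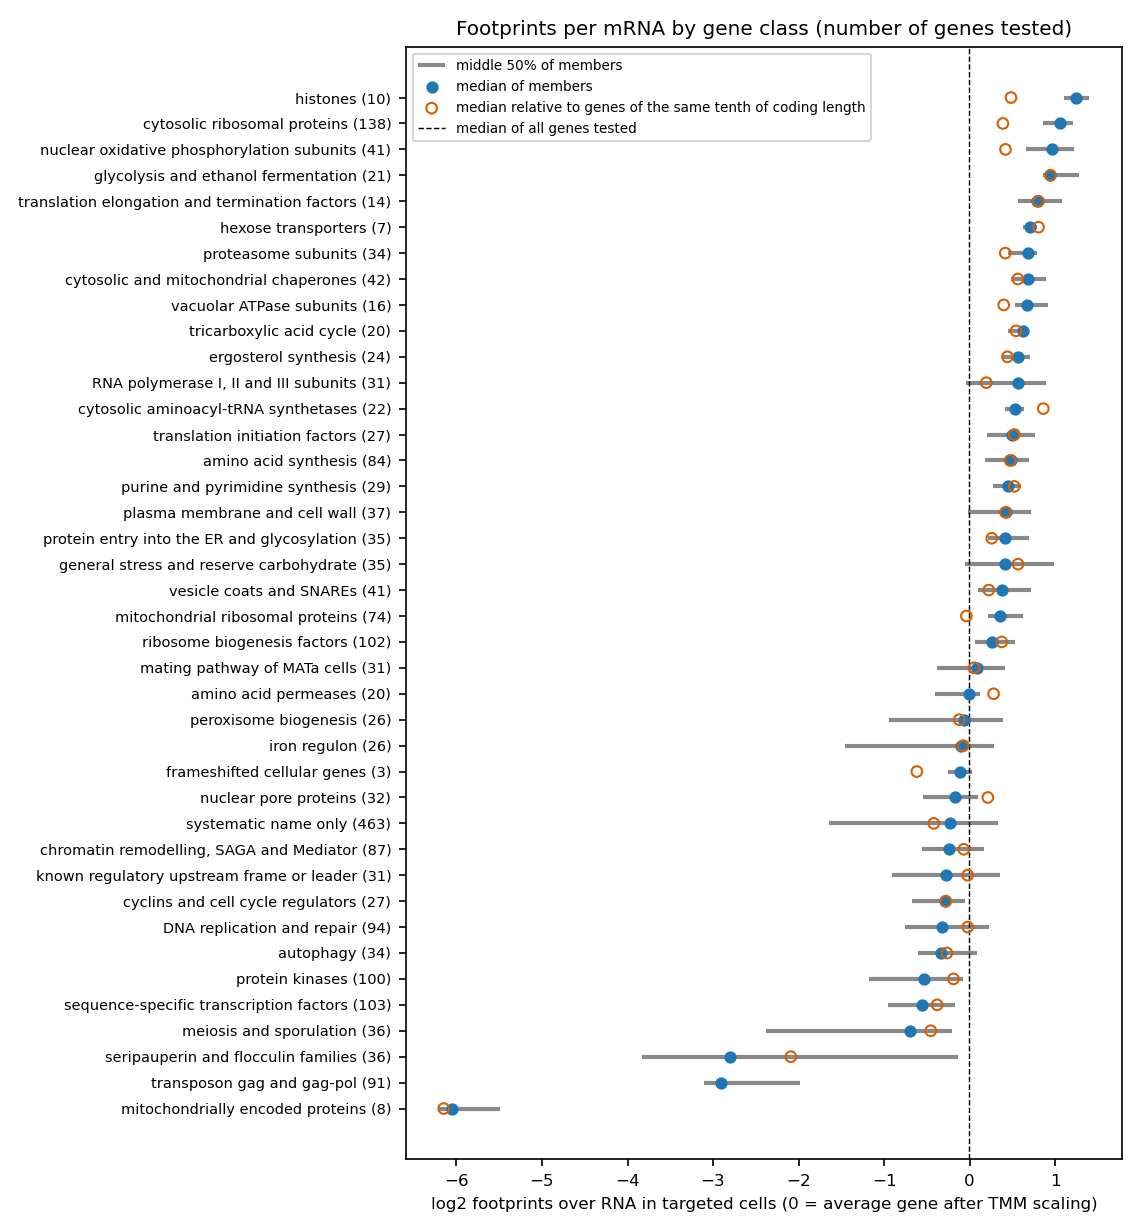
Gene classes from the highest to the lowest median log2 ratio of footprints over RNA in targeted cells (x axis), with the number of genes tested in brackets. Filled points are medians, bars the middle 50% of members, open circles the median after subtracting the median of all genes in the same of 10 equal bins of coding length, and the dashed line the median of all genes tested. Histones (1.24) and cytosolic ribosomal proteins (1.06) lead and mitochondrially encoded proteins (-6.05) close the order.

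Enzymes of glycolysis and ethanol fermentation were higher in 20 of 21 genes, 7 past 2-fold, with a median log2 ratio of 0.94. They took 15.6 and 16.7% of the footprint reads outside transposon rows, against 10.7 and 11.3% of the RNA reads. TDH1, a glyceraldehyde-3-phosphate dehydrogenase, had 3259 and 3745 normalised CPM in footprints, against 946 and 1097 in RNA. The log2 ratio of TDH1 was 1.78 ± 0.05 (edgeR adjusted p = 5.69e-16). The related TDH2 and TDH3 were at 1.58 and 1.03. PDC5, a minor pyruvate decarboxylase, was at 1.86, and the major enzyme PDC1 was at 0.77. PDC6, of the same family, was highest of the class at 2.17, from 314 and 287 footprint reads, against 82 and 41 RNA reads. How reads shared by such related genes were counted is not given, so their single values are uncertain. The phosphofructokinase subunits PFK1 and PFK2 were near the low end at 0.30 and 0.38. PYK2, a minor pyruvate kinase, was the gene not called (-0.10, adjusted p = 0.245), while the main pyruvate kinase CDC19 was at 0.86.

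Other metabolic classes followed at lower medians. Hexose transporters were higher in 7 of 7 genes (median 0.71), the tricarboxylic acid cycle in 18 of 20 (0.62), ergosterol synthesis in 19 of 24 with 3 lower (0.56), amino acid synthesis in 64 of 84 with 12 lower (0.48) and purine and pyrimidine synthesis in 25 of 29 with 1 lower (0.45). In amino acid synthesis, SER3, which opens the serine pathway, was highest at 1.09, and HIS4 and ARG1, of histidine and arginine synthesis, were at 0.36 and 0.78. The sulfite reductase subunits MET5 and MET10 were lower, at -0.69 and -0.67. Amino acid permeases did not share a direction, with 7 of 20 higher, 7 lower and a median of -0.01. The general permease GAP1 was highest at 0.33, a call lost where the lysate block was left out together with footprint replicate 2 (adjusted p = 0.0651) or RNA replicate 1 (adjusted p = 0.0616), and the amino acid sensor SSY1 was lowest at -1.52. PMA1, the proton pump of the plasma membrane, had 4444 and 4177 normalised CPM in footprints, against 3954 and 4028 in RNA, and did not pass the test (0.11, adjusted p = 0.0578).

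The marker genes LEU2 and URA3, which BY4741 lacks at their own loci and which growth without leucine and uracil requires, lay on opposite sides of the average. LEU2 had 7576 and 8864 normalised CPM in footprints, against 3721 and 4259 in RNA, and a log2 ratio of 1.04 ± 0.05 (edgeR adjusted p = 1.14e-12). URA3 had 214 and 160 in footprints, against 423 and 410 in RNA, and a log2 ratio of -1.17 ± 0.07 (adjusted p = 2.54e-11). For LEU2 both footprint libraries lay above both RNA libraries, and for URA3 both lay below.

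Genes of the proteasome, the vacuolar ATPase, chaperones and the nuclear RNA polymerases were mostly above the average gene. Proteasome subunits were higher in 33 of 34 genes (median 0.68), vacuolar ATPase subunits in 15 of 16 (0.67), and cytosolic and mitochondrial chaperones in 39 of 42 with 1 lower (0.68). Within the proteasome list, the 14 core particle genes had a median of 0.75 and the 6 regulatory ATPases 0.53. RPN4, the transcription factor of the proteasome genes that the list also holds, was its 1 lower member (-0.18), and that call was lost without the lysate block (adjusted p = 0.0665), also with any 1 of the 4 libraries left out besides (-0.23 to -0.11). Among chaperones, the small heat shock protein HSP26 was highest at 1.41 and SSA1, a main Hsp70, was at 0.74. Nuclear RNA polymerase subunits were higher in 21 and lower in 6 of 31 genes, with a median of 0.56. They ranged widely, with the small RPC10 at 1.27 and the largest subunits RPO21, RPO31 and RPA190 at -0.76, -0.61 and -0.35.

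Respiratory complexes showed a gap between genes of the nucleus and genes of the mitochondrial genome. Nuclear subunits of oxidative phosphorylation were higher in 39 of 41 genes, 13 past 2-fold, with a median log2 ratio of 0.96. CYC1, cytochrome c, had 46.6 and 43.4 normalised CPM in footprints, against 13.8 and 11.4 in RNA, and a ratio of 1.82 ± 0.07 (edgeR adjusted p = 4.11e-14). The 9 nuclear cytochrome c oxidase subunits were all higher, with a median of 1.31, and COX7 and COX12 reached 1.62 and 1.51. The catalytic subunits ATP1 and ATP2 of ATP synthase were at 0.45 and 0.25.

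The 8 mitochondrially encoded proteins, which mitochondrial ribosomes make, were lower in 8 of 8 genes and past 2-fold in all of them, with a median of -6.05, or 66.5-fold fewer footprints than the average gene for their RNA. COX2, a core subunit of cytochrome c oxidase, had 5.41 and 6.55 normalised CPM in footprints, against 282 and 277 in RNA. The libraries did not overlap, and the ratio was -5.55 ± 0.08 (edgeR adjusted p = 3.92e-20). All 18 tested rows of the mitochondrial genome were lower, with a median of -6.47, and some of these rows overlap each other. Footprints of 25 to 33 nt were selected in the protocol, and the size of mitochondrial footprints was not tested. Mitochondrial ribosomal proteins, encoded in the nucleus, were higher in 54 and lower in 2 of 74 genes, with a median of 0.36.

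Regulatory classes carried few footprints per mRNA. Transcription factors were lower in 73 and higher in 7 of 103 genes, with a median log2 ratio of -0.55. Past 2-fold, 11 were lower (10.7%), no more than the 11.7% of all genes tested. GCR1, the activator of glycolytic genes, was at -2.20, the filamentous growth factor PHD1 at -1.90, the arginine regulator ARG81 at -1.80 and the zinc regulator ZAP1 at -1.68. HAP3, a small subunit of the CCAAT-binding complex, was the highest at 0.71. Protein kinases were lower in 70 and higher in 7 of 100 genes, with a median of -0.54. Past 2-fold, 25 kinases were lower (25.0%, against 11.7% of all genes tested). TEL1, the telomere length kinase, had 7.08 and 8.76 normalised CPM in footprints, against 52.4 and 62.8 in RNA, and a ratio of -2.86 ± 0.07 (edgeR adjusted p = 3.66e-17). CDC28, the cyclin-dependent kinase of the cell cycle, was highest at 0.72. Transcription factors took 0.341 and 0.349% of footprint reads outside transposon rows, against 0.855 and 0.858% of RNA reads.

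Cyclins and cell cycle regulators were lower in 16 and higher in 4 of 27 genes (median -0.29), chromatin remodelling, SAGA and Mediator genes lower in 47 and higher in 18 of 87 (-0.24), DNA replication and repair genes lower in 54 and higher in 24 of 94 (-0.32) and autophagy genes lower in 17 and higher in 6 of 34 (-0.34). SWR1, a chromatin remodelling ATPase, was at -1.87, and the small Mediator subunit CSE2 was at 0.78. REV3, the catalytic subunit of a translesion polymerase, was at -2.72, and POL30, the sliding clamp of replication, was at 1.16. The SWE1 kinase that delays mitosis was at -1.60, and the small adaptor CKS1 was at 0.57. Nuclear pore proteins were lower in 17 and higher in 6 of 32 genes (median -0.17), between the scaffold filament MLP2 at -1.06 and the membrane protein POM33 at 0.79.

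**Figure D3:**
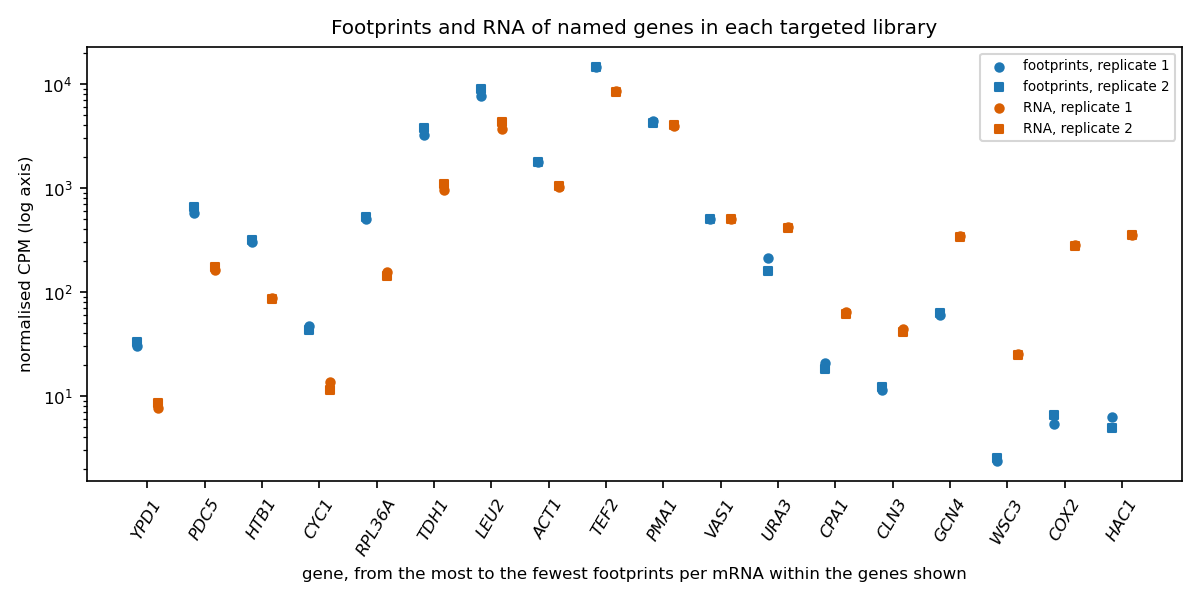
Normalised CPM (y axis, log scale) of 18 named genes in each targeted library, with the 2 footprint libraries left of the 2 RNA libraries. Genes run from the most to the fewest footprints per mRNA. Footprint points lie above RNA points from YPD1 to PMA1, meet them at VAS1 (503 and 507, against 506 and 507) and lie below them from URA3 to HAC1.

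Genes known for an upstream reading frame or a regulatory leader did not behave as 1 group. Of 31 tested genes, 17 were lower, 11 were higher and 3 were not called, with a median of -0.28. Past 2-fold, 7 were lower (22.6%, against 11.7% of all genes tested). The lowest was HAC1 (chromosome 6, 75179 to 76147, plus strand, build R64), the transcription factor of the unfolded protein response, whose unspliced mRNA is known to be held back from translation. HAC1 had 138 and 98 footprint reads, against 8566 and 5089 RNA reads, or 6.23 and 4.90 normalised CPM in footprints, against 355 and 352 in RNA. The footprint libraries were 63.3-fold lower (log2 ratio -5.98 ± 0.08, edgeR adjusted p = 3.92e-20), the lowest ratio of a nuclear gene by the naming rule.

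GCN4 (chromosome 5, 138918 to 139763, minus strand), the activator of amino acid synthesis, is the textbook case of control by upstream frames. It had 59.95 and 62.1 normalised CPM in footprints, against 342 and 339 in RNA, with no overlap between the libraries. Its log2 ratio was -2.48 ± 0.06, or 5.58-fold fewer footprints than the average gene (edgeR adjusted p = 1.83e-17). CLN3, the first G1 cyclin, had 11.5 and 12.2 normalised CPM in footprints, against 43.9 and 41.6 in RNA, and a ratio of -1.86 ± 0.07 (adjusted p = 6.09e-14). The cell wall sensor WSC3 was at -3.36, the mitochondrial tRNA enzyme SLM3 at -1.55, the MAP kinase kinase MKK1 at -1.42 and the pyrimidine regulator PPR1 at -1.05. At the other end, PMP3, a small membrane protein, was at 1.13 and spermidine synthase SPE3 at 0.94.

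CPA1 (chromosome 15, 882899 to 884134, plus strand), a subunit of the carbamoyl phosphate synthetase for arginine, is known for a leader frame whose peptide stalls ribosomes when arginine is plentiful. CPA1 had 20.6 and 18.3 normalised CPM in footprints, against 64.02 and 61.6 in RNA, and a ratio of -1.69 ± 0.06 (edgeR adjusted p = 9.6e-15), the lowest of the 84 amino acid synthesis genes. A row of 78 bases, YOR302W (882765 to 882842), ends 56 bases before the CPA1 start on the same strand. YOR302W had 15.2 and 13.2 normalised CPM in footprints, against 5.10 and 4.08 in RNA, and a ratio of 1.62 ± 0.13 (adjusted p = 1.49e-09). The footprint values lay below the RNA values for CPA1 and above them for YOR302W, in both lysates.

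Transposon rows, which encode gag or gag-pol, were lower in 91 of 91 cases, all past 2-fold, with a median log2 ratio of -2.91. They held 20.6 and 22.8% of the summed footprint reads, against 72.2 and 72.9% of the summed RNA reads. Since 82 of these rows overlap another row, the same reads may enter these sums more than once. The 45 rows of gag, the capsid protein, had a median of -1.98, and the 46 rows of the longer gag-pol fusion, which a frameshift produces, had -3.11. Many of these rows are copies: 33 tested genes with at least 30 reads in each library shared all 4 counts with another gene, 14 of them transposon rows. The 4 copies of the asparaginase gene ASP3 also had the same counts, with 131 and 142 footprint reads, against 2575 and 1449 RNA reads, and a ratio of -3.999.

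Genes of subtelomeric and flocculin families and of meiosis also stood low against the average gene, though many of these rows had few reads. Of 36 tested rows in the seripauperin and flocculin families, 26 were lower, 24 past 2-fold. The 11 tested seripauperins had a median of -3.73, 5 flocculins -5.61 and the 8 YRF1 helicases -2.81, while the 12 COS genes had 0.35. Only 19 of the 36 rows reached 30 reads in every library. Median RNA was 2.4 RPKM (reads scaled to library size and coding length) for seripauperins and 2.5 for flocculins. Over all genes tested it was 10.7 RPKM, so the medians of these 2 families are uncertain. The 8 YRF1 ratios ran only from -2.96 to -2.79. How reads shared by related rows were counted is not given, so these may not be separate values. Of 65 meiosis and sporulation genes, 36 had enough reads to be tested, 18 were lower and 3 higher, with a median of -0.697. Only 9 of these 36 genes reached 30 reads in every library. Their median RNA as a class was 1.02 RPKM, so the class median is uncertain too. Against genes of similar coding length the class median was -0.455, with 6 of 36 above. Against genes of similar RNA level it was -0.101, with 17 of 36 above. The synaptonemal complex protein ZIP1 was at -1.51 from 39 and 32 footprint reads. In the iron regulon 12 of 26 genes were lower (46.2%, against 39.7% of all genes tested) and 7 were higher. The median of -0.10 lay between -0.23 and 0.02 over the alternatives. Past 2-fold, 9 were lower (34.6%, against 11.7% of all genes tested). Of the 26 genes, 20 reached 30 reads in every library, and the lowest ratio, -6.95, was of a gene that did not. Among those 20, the siderophore transporter ENB1 was lowest at -1.62 and the copper chaperone ATX1 highest at 1.03. Of the 463 tested rows with a systematic name only, 224 were lower (48.4%) and 127 higher (27.4%), with a median of -0.23. Over all genes tested 39.7% were lower and 39.3% higher. Past 2-fold, 129 of these rows were lower (27.9%, against 11.7% of all genes tested).

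The ratio fell with coding length. Spearman's rho over 5527 tested rows without transposons was -0.535, given as a description across genes that share libraries, and it was -0.764 over 3492 genes that reached 10 CPM in all 4 libraries. In the shortest of 10 equal bins of genes, with a median length of 330 bases, the median log2 ratio was 0.81, and 70.5% were higher. In the longest bin, with a median of 3540 bases, it was -0.72, and 89.0% were lower. Of the 212 genes higher past 2-fold, 185 lay in the 2 shortest bins, and 1 lay in the longest. Of the 657 lower past 2-fold, 144 lay in the longest bin and 109 in the 2 shortest, 84 of them in the shortest, the second highest count of the 10 bins. RNA level per length went with the ratio too, with a rho of 0.507, although RNA is also the denominator. The median ratio was -0.67 in the bin of genes with the least RNA per length (median 2.16 RPKM, reads scaled to library size and coding length) and 0.79 in the bin with the most (162 RPKM).

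**Figure D4:**
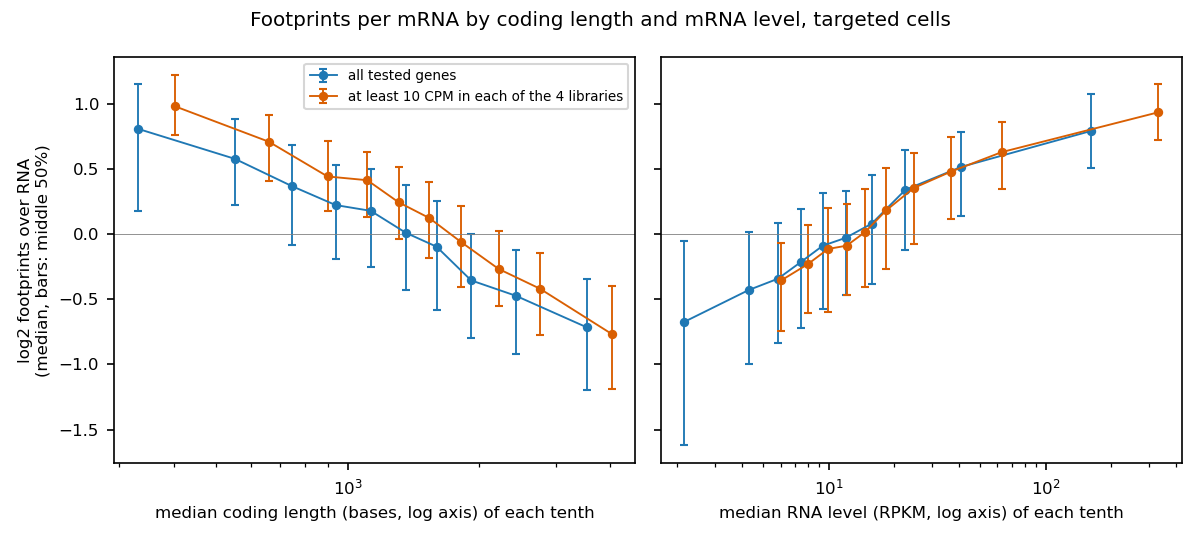
Median log2 ratio of footprints over RNA (y axis, bars give the middle 50%) in 10 equal bins of genes ordered by coding length in bases (left, log axis) and by RNA level in RPKM (right, log axis). Blue points are all tested genes without transposon rows and orange points those that reached 10 CPM in all 4 libraries. Medians fall with length from 0.81 to -0.72 and climb with RNA level from -0.67 to 0.79 over all tested genes.

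Length moved with several classes, so each class was also set against the median of all genes in its members' own length bin, a comparison added after the data were seen. Glycolytic enzymes (0.95), aminoacyl-tRNA synthetases (0.86), elongation and termination factors (0.81) and hexose transporters (0.81) then had the highest medians. Histones and cytosolic ribosomal proteins, which are short, fell to 0.48 and 0.39, with 10 of 10 and 133 of 138 members above their bin. Mitochondrial ribosomal proteins fell to -0.04, with 28 of 74 above. Kinases stood at -0.19 (74 of 100 below) and transcription factors at -0.38 (86 of 103 below), while nuclear pore proteins, which are long, turned to 0.21. DNA replication and repair genes came to -0.02, with 47 above and 47 below, and chromatin genes to -0.07, with 38 above and 49 below. Set against genes of the same RNA level bin instead, glycolytic enzymes were at 0.15, with 16 of 21 above, and hexose transporters at 0.21. Histones were at 0.45 and cytosolic ribosomal proteins at 0.27, with 10 of 10 and 117 of 138 above. Aminoacyl-tRNA synthetases were at -0.24, initiation factors at -0.13, elongation and termination factors at 0.01 and transcription factors at -0.47. The parts that length and RNA level have in the class medians were not tested.

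Some low ratios belong to rows whose reads are hard to assign. Of the 200 tested rows that overlap another row, 82 were transposon rows and 13 mitochondrial rows, all of them lower. Of the 105 others, 52 were lower (49.5%), with a median of -0.18, against 38.4% of the 5418 rows with no overlap. These nuclear rows made up 27 of the 548 lower past 2-fold once transposon and mitochondrial rows were left out (4.93%), and 1.91% of all such rows tested. Among the same nuclear rows, 93 of the 548 lower past 2-fold and 13 of the 212 higher had a neighbour within 200 bases on the same strand, against 446 of all 5509. Whether counting used strand is not stated in the labels.

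By size of ratio among genes with at least 10 CPM of mean level and 30 reads in each library, YPD1 stood next below ANB1. It is the phosphorelay protein of the osmosensing pathway and had 30.5 and 32.7 normalised CPM in footprints, against 7.67 and 8.58 in RNA, and a ratio of 1.96 ± 0.09 (edgeR adjusted p = 4.92e-13). Nucleoside diphosphate kinase YNK1 was at 1.90, the clathrin adaptor subunit APS1 at 1.78 and the ribosome-associated TMA7 at 1.78. Among the lower genes, the row YER138W-A was at -4.69, YIL060W at -4.21, BRE4 at -3.91 and FIG2, a cell wall adhesin of mating, at -3.17. The mating genes MFA1 and MFA2, which encode a-factor, were at 1.15 and 1.19. In the whole list of 31 tested mating genes, 13 were higher (41.9%) and 9 were lower (29.0%). Over all genes tested 39.3% were higher and 39.7% lower.

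Few genes differed in their ratio between targeted cells and cells with control gRNAs. In a fit of all 8 libraries with lysate as a block, edgeR tested the targeted ratio minus the control ratio in 5665 genes and called 6 (0.106%), of which 1 was higher (0.0177%) and 5 were lower (0.0883%). At an unadjusted p under 0.05 it counted 291 of the 5665 genes, close to the share of 0.05 that this threshold passes where no gene differs. GCN4 was the higher one. Its footprints were 60.7 and 63.2 normalised CPM in targeted cells, against 30.02 and 40.8 in control cells, and its RNA was 347 and 344 in targeted cells, against 297 and 323 in control cells. The targeted footprint libraries did not overlap the control ones. The log2 ratio was -2.48 in targeted cells, against -3.15 in control cells, a difference of 0.67 ± 0.09 (edgeR adjusted p = 6.52e-05). Without the lysate block the difference was 0.66, with an adjusted p of 1.0, and no gene was called. The 5 lower rows were all of the mitochondrial genome. With lysate as a block, a lysate that lacks 1 of its libraries adds nothing to the difference. Without the first targeted footprint library, the targeted side thus rested on 1 lysate. The 5 differences then ran from -1.35 to -0.36, against -1.94 to -0.58 with all libraries. In the class medians of this difference, mitochondrially encoded proteins stood at -0.50, and all other classes lay between -0.13 (transposon rows) and 0.06.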

How the data were processed

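RNA-seq and RIBO-seq of haploid BY4741 yeast came as 1 table of 6016 gene rows. Per the labels' protocols, RNase I digestion and monosome isolation gave footprints, size-selected at 25 to 33 nt, and an aliquot of the same lysate gave RNA that was depleted of rRNA, although the labels name polyA RNA as the molecule. The submitters' processing notes name cutadapt, STAR and genome R64. How reads were counted, with or without strand, and what became of multi-mapping reads is not given in the sources used here. Counts were deposited as whole numbers for each gene, and the authors also deposited RPKM per coding length and a ratio. The authors' deposited ratio divides RPKM of footprints by that of RNA after adding 0.01 to each, which held within 2% for 99.8% of values. Locus tags of 6013 rows matched the RefSeq R64 gene table.

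Counts of the 4 targeted libraries were tested in R 4.3.3 with edgeR 4.0.16 (quasi-likelihood test, TMM scaling, filterByExpr, lysate as a block, Benjamini-Hochberg adjustment over all genes tested, threshold 0.05, two-sided), which left 1 residual degree of freedom and 16.5 prior ones, so p-values rest mostly on the spread shared over genes. glmTreat tested against a 2-fold ratio. SE is the log2 ratio divided by the square root of F. Lysate pairs the libraries per the labels' protocols and the authors' ratios, and the paired libraries deviated together from their groups (r = 0.382). The 40 gene lists come from textbook knowledge, and members and lists were chosen with earlier results of these data known. Lists are described by counts and medians with no test of the list. Genes were named by rule: the 10 highest and 10 lowest ratios among called genes with at least 10 CPM, 30 reads in every library and no overlap between libraries, the end members of each list with 30 reads, and fixed markers. Other named list members and rows were chosen after their values were seen. On simulated counts of 5618 genes, 67 of 67 genes with a 1.5-fold change were recovered for the ratio in targeted cells, with 3 false calls, and 62 of 67 for its difference from control cells, with 8 false calls. In this simulation the changed genes had a mean of at least 10 CPM, and most genes did not change. All genes shared 1 spread and no lysate effect was added. Recovery under the conditions of the real data was therefore not measured. DESeq2 1.42.0 and limma-voom (limma 3.58.1) served as alternatives. Sequences were not analysed here, since no sequence reference was used.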

Additional observations from a re-analysis of the deposited data

Results flagged for a closer look

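In 6 genes the log2 ratio of footprints over RNA differed between targeted and control cells in the test of the difference itself (edgeR, 8 libraries, lysate as a block). GCN4 was higher in targeted cells by 0.67 (adjusted p = 6.52e-05). The other 5 were mitochondrial rows and were lower in targeted cells: Q0255 by -1.94, AI4, an intron-encoded endonuclease, by -0.80, COX2 by -0.73, AI5_ALPHA by -0.62 and COX1 by -0.58, with adjusted p from 0.00346 to 0.0356. COX2 footprints were 5.48 and 6.67 normalised CPM in targeted cells, against 9.30 and 12.1 in control cells, and its RNA was 287 and 281 in targeted cells, against 270 and 332 in control cells. Q0255 rested on 7 and 18 footprint reads in targeted cells, against 28 and 37 in control cells. Rows AI4, AI5_ALPHA and COX1 overlap, so they are not independent. With lysate as a block, leaving out 1 library also took its lysate out of the difference. Without the first targeted footprint library the difference was -1.35 for Q0255, -0.49 for AI4, -0.57 for COX2, -0.44 for AI5_ALPHA and -0.36 for COX1. Without the first targeted RNA library, of the same lysate, it was -0.50 for AI4, -0.46 for AI5_ALPHA and -0.37 for COX1. Without the second control footprint library it was -0.58, -0.49 and -0.49 for these rows, and without the second control RNA library -0.57, -0.48 and -0.48. For Q0255 it was -1.64 without the second control RNA library. None of the 6 was called without the lysate block. With RLE scaling, DESeq2 or limma-voom, AI4, AI5_ALPHA, COX1 and Q0255 were not called. At 10 CPM or more, AI4, AI5_ALPHA and COX1 were not called.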

How the results depend on the processing

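Among targeted cells, calls of genes off the average numbered 4435 in the fit reported, 3999 without the replicate block (all among the 4435), 3455 with DESeq2 and 3728 to 3839 with the block and 1 library both left out. Fits of the ratio that leave out 1 library have no block, since a block would leave no residual degrees of freedom, and the lone library of an assay is taken to vary like the pair of the other assay. The test against a 2-fold ratio called 869. Scaling by library size alone called 5093, of which 87.6% were higher, against 49.7% in the fit reported. The difference between targeted and control cells depended on the setting. Its 6 calls became 0 without the replicate block (105 genes at an unadjusted p under 0.05), 13 with library size alone and 2 with RLE scaling. They became 10 without the filter on low counts, 3 at 10 CPM or more, 14 with DESeq2 and 2 with limma-voom. The 14 of DESeq2 did not include AI4, AI5_ALPHA, COX1 or Q0255. Leaving out 1 library gave 3 to 116 calls: 3, 89, 54 and 116 without footprint replicate 1, footprint replicate 2, RNA replicate 1 and RNA replicate 2 of the targeted cells, and 16, 9, 15 and 4 without the same libraries of the control cells. With lysate as a block, each of these fits also lost the lysate of the library left out. The footprint and RNA fits of 1 replicate are thus not separate checks. The GCN4 difference was 0.49 to 0.84 over these fits, with 0.71 and 0.70 without targeted footprint or RNA replicate 1. Over the same libraries the COX1 difference spanned -0.83 to -0.36 and that of AI4 -1.18 to -0.49, the smallest without targeted footprint replicate 1 and the largest without targeted footprint replicate 2. The correlation with coding length was -0.764 at 10 CPM or more, against -0.535. Of 40 list medians, 24 lay above that of all genes, and 19 to 25 did so over all alternatives, with 19 relative to the same RNA level bin.

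Library size alone adds about 1.02 to each log2 ratio, so by construction ratios less than that below 0 became positive: PYK2 (0.94), TIF4632 (0.65), VAS1 (1.03), RSM22 (0.43), RPO21 (0.28), URA10 (0.65), ERG7 (0.27), STV1 (0.60), CHS3 (0.44), a subunit of the signal recognition particle receptor (0.94), SEC16 (0.31), SSA4 (1.003), RPN4 (0.85), GDB1 (0.58), OAZ1 (0.64), YAP1 (0.69) and NAB2 (0.90). With the block left out too, small ratios changed sign. Without targeted footprint replicate 1, PYK2 was at 0.0556, VAS1 at 0.01, SSA4 at 0.19 and QCR6 at -0.0729. Without targeted RNA replicate 2, PYK2 was at 0.0071 and SSA4 at 0.20, and without RNA replicate 1 QCR6 was at -0.0093. VAS1 was at 0.0077 centred on the median gene, 0.0163 without the filter and 0.0087 in the authors' deposited ratio. At 10 CPM or more, KGD1 was at -0.0529, QCR6 at -0.10 and PMA1 at -0.0191. The cause of these changes was not tested. Without the block the calls of RPN4, GDB1 (-0.43, adjusted p = 0.183), ABP140 (0.17, adjusted p = 0.0785), OAZ1 (-0.40, adjusted p = 0.0666) and NAB2 (-0.14, adjusted p = 0.135) were lost, and with 1 library also left out GDB1 spanned -0.84 to -0.05, ABP140 0.11 to 0.24, OAZ1 -0.53 to -0.20 and NAB2 -0.18 to -0.09. CSM1 was not called with DESeq2 (adjusted p = 0.212). The planned comparison of bases before the start codon was not run, since no sequence was used. Near-identical copies, overlapping rows and rows with few footprint reads limit single values.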

Other observations

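Some well-transcribed rows had almost no footprints. Chosen after their values were seen, 15 genes had at least 10 CPM of RNA in both lysates and under 10 footprint reads in both. MTC7 had 9 and 7 footprint reads, against 3443 and 1666 RNA reads, and YCR024C-B had 8 and 4, against 2657 and 1579. YNL042W-B had 3 and 6 footprint reads, against 2553 and 1489 RNA reads. Of the 15 genes, 8 had a systematic name only and 1 overlapped another row. In 20 tested genes no footprint read was counted in either lysate.

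Stress and secretory genes showed a wide spread within their classes. General stress and reserve carbohydrate genes were higher in 20 and lower in 5 of 35, and the small membrane and stress proteins HOR7 and HSP12 were at 1.73 and 1.61 while the glycogen debranching enzyme GDB1 was at -0.45. Where the lysate block was left out too, GDB1 was at -0.10 without footprint replicate 1 and at -0.05 without RNA replicate 2, and was then not called. SSA3, a stress-induced Hsp70, was at -3.34 although its list of chaperones had a median of 0.68. Of the 42 chaperone genes, 41 reached 30 reads in every library and SSA3 did not, so its value is uncertain. Prefoldin, which hands unfolded actin and tubulin to the CCT chaperonin, had a median of 1.01 over 6 genes, and the 8 CCT subunits had 0.41. Genes of protein entry into the ER were higher in 30 of 35, with OST2, an oligosaccharyltransferase subunit, at 1.07. Vesicle coat and SNARE genes were higher in 29 and lower in 3 of 41, between the GTPase ARF1 at 1.29 and the scaffold SEC16 at -0.73. In peroxisome biogenesis, 7 of 26 were higher (26.9%, against 39.3% of all genes tested) and 11 lower (42.3%, against 39.7%). They lay between PEX11, which divides peroxisomes, at 1.36 and the ATPase PEX6 at -1.73. Cell wall and plasma membrane genes were higher in 24 and lower in 8 of 37, with the wall protein PIR3 at 1.33 and chitin synthase CHS3 at -0.59. Of 3 cellular genes read through a programmed frameshift, ABP140, an actin-binding tRNA methyltransferase, was higher at 0.16 and the antizyme OAZ1 lower at -0.39, and neither was called without the lysate block.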
